A study of Homo sapiens with 6 samples.

Results

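The proteolipid M6 and reticulon genes GPM6A, GPM6B, PLP2, RTN1, RTN2, RTN3 and RTN4 are described here, 7 of the 58051 genes counted, and 6 of the 7 had enough counts to be tested. GPM6A and RTN1 were chosen by their difference between RBFOX1 and GFP cells, so that difference is given as a description with no test. The other 5 were taken by family name, PLP2 by its name proteolipid protein, although it belongs to another family. GPM6A stood at 563 ± 35.5 normalized counts in GFP cells and at 3232 ± 223 in cells with RBFOX1, and RTN1 at 144 ± 9.29 and 741 ± 3.72. PLP2, RTN3 and RTN4 were lower with RBFOX1, with log2 fold changes of -0.67, -0.35 and -0.18, RTN2 did not pass the test, and GPM6B had 4 counts or fewer in every library. Means are given ± SD over the 3 libraries of a group (n = 3) throughout, and SE marks the standard error of a fitted log2 fold change. A normalized count is a gene's count brought to the mean effective library size, and a test was passed at an adjusted p under 0.05 (edgeR, quasi-likelihood).

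The cells were A172, a human glioblastoma line kept in culture, made stable for a lentiviral pLX317 plasmid with RBFOX1 or, as control, with GFP. RBFOX1 is an RNA-binding protein that acts on splicing and on mRNA stability. The study's methods count 3 biological replicates of each lentiviral transfection, all in 1 tumour line, and all 6 libraries are from transduced cells. In the GFP libraries RBFOX1 was nearly silent, with at most 4 counts, and in the RBFOX1 libraries it had at least 10276 counts, so the construct was present where the labels place it.

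The M6 glycoproteins GPM6A and GPM6B are proteolipids of the cell surface that cross the membrane several times. GPM6A sits at the surface of neurons and promotes filopodia and neurite growth, and GPM6B is found in neurons and oligodendrocytes. Reticulons carry a pair of hydrophobic hairpins that bend the membrane of the endoplasmic reticulum into tubules. RTN1 is typical of neurons and neuroendocrine cells, RTN2 is linked to hereditary spastic paraplegia, RTN3 also serves as a receptor for the turnover of reticulum tubules, and RTN4, known as Nogo, is the widely expressed member whose extracellular action restrains axon growth. The RBFOX proteins bind the motif TGCATG, written in DNA letters, and the comparison addressed how adding RBFOX1 changes the transcripts of these cells.

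The 3′ UTR of the canonical transcript (GENCODE release 44 on GRCh38) was searched for TGCATG on the transcript's own strand. The sites are shown because they are the letters that the introduced protein is known to recognise. GPM6A, GPM6B, RTN1, RTN2 and RTN3 held 1 match each, and PLP2 and RTN4 held none. The matches are printed 5′ to 3′ along the transcript with 10 bases on each side, with the motif in capitals.
GPM6A: gtaatgctaaTGCATGgctagttgcc
GPM6B: gttttcctgtTGCATGacagatttaa
RTN1: ctaaaaaaagTGCATGatggtgagag
RTN2: gccggggcttTGCATGgggcccaggg
RTN3: aaaaataaccTGCATGtgggctcctc

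The match of GPM6A lies at chr4:175634187-175634192 on the minus strand, 713 nucleotides after the stop codon of a 3′ UTR 1968 nucleotides long. That of GPM6B lies at chrX:13771314-13771319 on the minus strand, 1562 nucleotides into a 3′ UTR of 1942. The match of RTN1 lies at chr14:59596486-59596491 on the minus strand, 254 nucleotides into a 3′ UTR of 762. That of RTN2 lies at chr19:45485351-45485356 on the minus strand, 352 nucleotides into a 3′ UTR of 414. That of RTN3 lies at chr11:63759106-63759111 on the plus strand, 905 nucleotides into a 3′ UTR of 1681. Of 14052 tested protein-coding genes with an annotated 3′ UTR, 36.5% held at least 1 match. Among the 6213 whose 3′ UTR measured 400 to 2000 nucleotides, a range that holds all 7 genes here, the share was 26.3%. The shorter core GCATG, which also counts every TGCATG, occurred 3 times in GPM6A, 2 times each in GPM6B, RTN1 and RTN3, once in RTN2, and not in PLP2 or RTN4, and the shares of genes with it were 61.8% and 57.0% in the same 2 sets. A match in the letters is a description and not a site of binding. GPM6A and RTN1, which were higher, held a match, as did RTN3, which was lower, and RTN2, which did not pass the test. PLP2 and RTN4, which were lower, held none. Whether the matches bear on these differences was not tested.

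**Figure D1:**
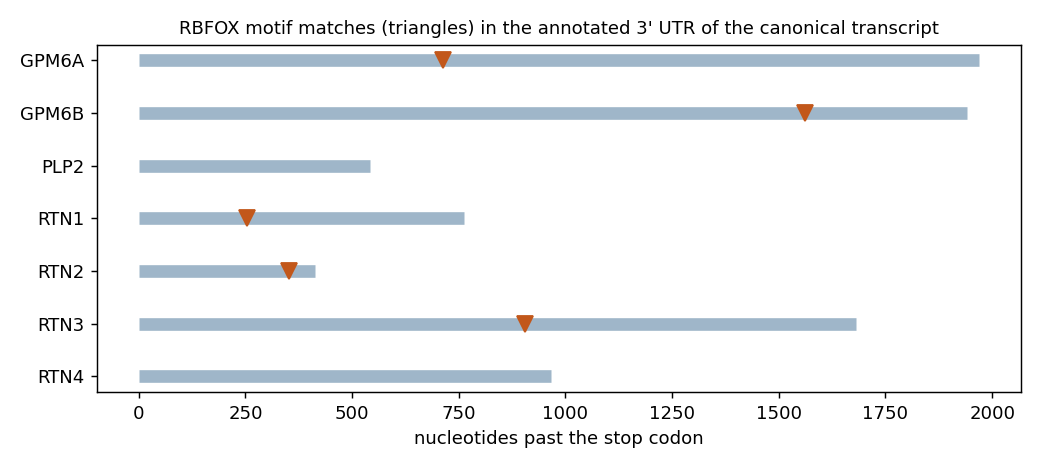
Each gene's 3′ UTR, from its canonical transcript, is drawn to scale in nucleotides past the stop codon (x axis), 1 bar per gene, with triangles at TGCATG matches. GPM6A, GPM6B, RTN1, RTN2 and RTN3 have 1 match each, at different distances from the stop codon, and PLP2 and RTN4 have none.

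Library totals on genes lay between 7433414 and 23249221 counts. GFP replicate 1, the deepest, stood apart from the other GFP libraries, with chi-squares of 8.08 and 8.23 per degree of freedom where those 2 gave 1.60 between them. Of the 7 astrocyte markers, 6 were at or near 0 (GFAP, AQP4, S100B, SLC1A2, SLC1A3 and ALDH1L1, with at most 6 counts in any library), and GJA1, the gap junction gene, had 930 to 2728 counts. The 6 mesenchymal glioblastoma markers, VIM and CD44 among them, summed to 7807 to 7857 CPM in GFP and 4339 to 4420 CPM in RBFOX1 libraries (2 higher, 4 lower). As background for the counts below, 46.7% of all genes tested passed, 23.7% higher and 22.9% lower with RBFOX1, and the groups did not overlap for 53.4%. In bulk RNA, fewer cells of a type and less RNA per cell cannot be told apart.

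GPM6A (ENSG00000150625, chromosome 4, 175632934 to 176002664, minus strand) had 594, 524 and 572 normalized counts in GFP replicates 1, 2 and 3 and 3045, 3479 and 3171 in RBFOX1 replicates 1, 2 and 3. The RBFOX1 libraries lay far above the GFP libraries, and the spread within a group was small, with a coefficient of variation of 6.30% in GFP and 6.91% in RBFOX1 cells. The ratio of the means was 5.74, and the fitted log2 fold change was 2.51 (SE 0.0633). Of the 12012 genes averaging at least 50 normalized counts, 0.857% (103 genes) lay at least as high in fitted log2 fold change, GPM6A itself included.

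GPM6B (ENSG00000046653, chromosome X, 13770939 to 13938638, minus strand) had 4, 0 and 1 counts in the GFP libraries and no count in any RBFOX1 library. It was too low to be tested, and no fold is given. In the RBFOX1 libraries a count of 0 allows 5.44, 3.33 and 2.74 normalized counts in replicates 1, 2 and 3, taking 3 counts as the limit, for counting error only. GPM6A accounted for at least 99.5% of the M6 counts per exon length in every library, so the M6 RNA of these cells came almost wholly from GPM6A in both conditions. GPM6B overlaps OFD1 on the opposite strand, which had 417 to 1394 counts.

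PLP2 (ENSG00000102007, chromosome X, 49171898 to 49175235, plus strand) encodes a small membrane protein of the MARVEL type, first known from epithelium of the colon. It had 2167, 2097 and 2168 normalized counts in the GFP libraries and 1357, 1318 and 1364 in the RBFOX1 libraries. The 3 RBFOX1 libraries lay below the 3 GFP libraries and each group was tight, at 2144 ± 40.4 and 1346 ± 24.9. The log2 fold change was -0.67 (SE 0.0498, edgeR adjusted p = 7.41e-10). This was the lowest log2 fold change among the 6 tested genes.

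**Figure D2:**
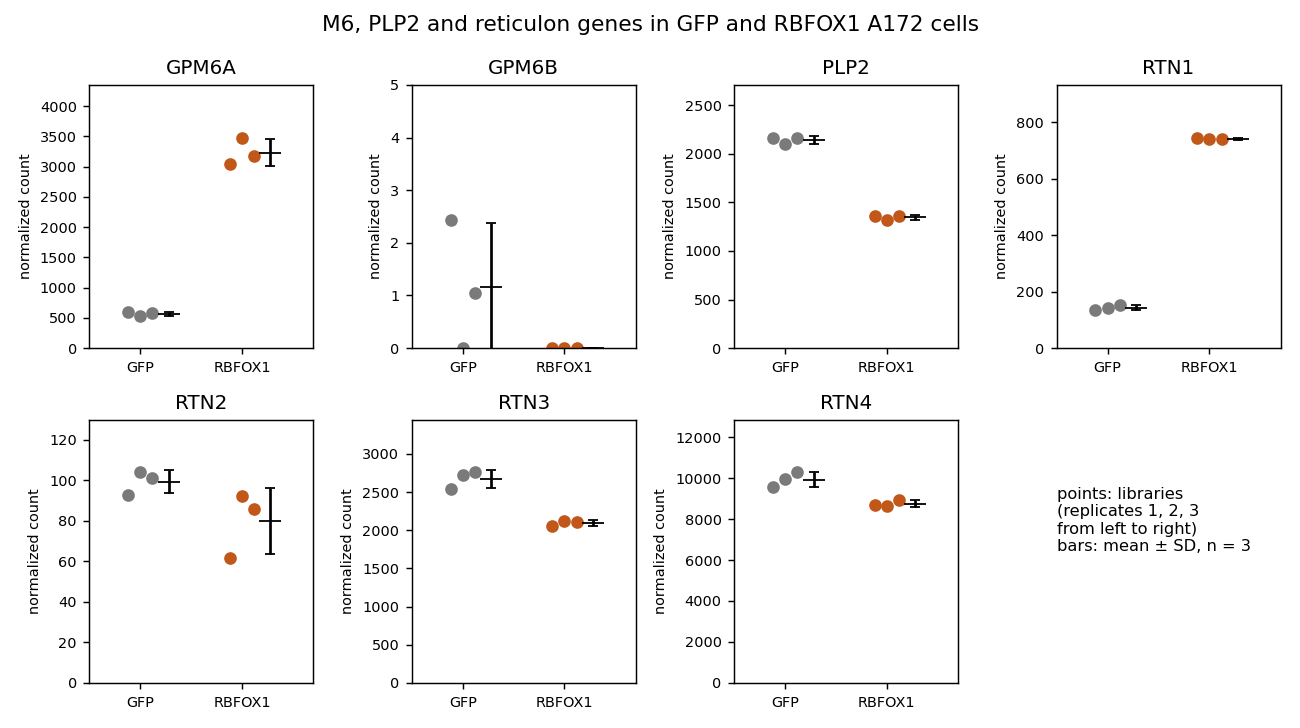
Normalized counts (y axis, linear and starting at 0 in each panel) of the 7 genes in the 3 GFP and 3 RBFOX1 libraries; points are libraries, and black bars are the mean ± SD, cut off at 0 for GPM6B. GPM6A and RTN1 are high in all 3 RBFOX1 libraries, and GPM6B has no count there. PLP2, RTN2, RTN3 and RTN4 are lower in all 3, though RTN2 did not pass the test.

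RTN1 (ENSG00000139970, chromosome 14, 59595976 to 59870776, minus strand) had 134, 144 and 153 normalized counts in the GFP libraries and 745, 739 and 739 in the RBFOX1 libraries. The groups lay far apart, with a ratio of means of 5.16 and a fitted log2 fold change of 2.38 (SE 0.0781). The RBFOX1 libraries agreed within 0.503% of their mean (coefficient of variation), closer than the 3.52 to 4.93% that counting alone gives for each of them. Of the genes averaging at least 50 normalized counts, 0.949% lay at least as high in fitted log2 fold change, RTN1 included, and of all genes tested, low ones among them, 2.73% did. Gene-level counts do not separate the long and short RTN1 transcripts, so which of them was higher was not measured here.

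RTN2 (ENSG00000125744, chromosome 19, 45485294 to 45497055, minus strand) was the least abundant reticulon in RBFOX1 cells. It had 92.9, 104 and 101 normalized counts in the GFP libraries and 61.7, 92.1 and 85.8 in the RBFOX1 libraries. The highest RBFOX1 library lay just under the lowest GFP library, and RBFOX1 replicate 1, which is the shallowest and had 34 counts, stood below the other two. The means were 99.3 ± 5.74 and 79.9 ± 16.1. The log2 fold change of -0.26 (SE 0.142) did not pass the threshold (edgeR adjusted p = 0.150), and without RBFOX1 replicate 1 it was -0.14.

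RTN3 (ENSG00000133318, chromosome 11, 63681446 to 63759891, plus strand) had 2533, 2724 and 2758 normalized counts in the GFP libraries and 2049.6, 2121 and 2107 in the RBFOX1 libraries. All RBFOX1 libraries lay below all GFP libraries. The means of 2672 ± 121 and 2093 ± 37.7 gave a log2 fold change of -0.35 (SE 0.0504, edgeR adjusted p = 7.91e-06). Its processed pseudogene RTN3P1 had 21 to 94 counts per library, and how many reads fit both loci was not measured, which leaves the RTN3 value uncertain to an unknown extent.

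RTN4 (ENSG00000115310, chromosome 2, 54972187 to 55112621, minus strand) was the most abundant reticulon in every library. It had 9579.8, 9938 and 10286 normalized counts in the GFP libraries and 8672, 8656 and 8949 in the RBFOX1 libraries. The groups did not overlap, but the difference was small, from 9934 ± 353 to 8759 ± 164, or -0.18 as a log2 fold change (SE 0.0471, edgeR adjusted p = 0.00333).

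Of the 4 tested paralogs taken by family name, PLP2, RTN3 and RTN4 passed the threshold and all were lower, where 46.7% of all genes tested passed it in either direction and 63.8% of those with a mean of at least 50 normalized counts. The groups did not overlap for any of the 6 tested members, beside 53.4% of all genes tested. That share includes low genes, while all 6 members averaged at least 50 normalized counts, and the share among such genes was not measured. Both counts come from the contrast in which the members were chosen. Library by library, on the log2 CPM scale, GPM6A and RTN1 in RBFOX1 cells lay 2.35 to 2.62 above the mean of the GFP libraries, and PLP2, RTN3 and RTN4 lay at differences of -0.70 to -0.15.

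Levels were compared between genes as CPM per kb of annotated exon (RPKM). In GFP cells the order was PLP2 at 119 ± 2.24, RTN4 at 108 ± 3.83, RTN3 at 33.2 ± 1.51, GPM6A at 6.19 ± 0.390, RTN2 at 2.22 ± 0.128, RTN1 at 1.72 ± 0.111 and GPM6B at 0.0145 ± 0.0152 RPKM. In RBFOX1 cells it was RTN4 at 95.0 ± 1.78, PLP2 at 74.5 ± 1.38, GPM6A at 35.5 ± 2.46, RTN3 at 26.0 ± 0.469, RTN1 at 8.87 ± 0.0446 and RTN2 at 1.78 ± 0.359 RPKM, with GPM6B at 0 counts. On this scale GPM6A passed RTN3, RTN1 passed RTN2, and RTN4 and PLP2 changed places. The last 2 changes rest on the division by exon length: in normalized counts RTN1 was already above RTN2 in every GFP library, and RTN4 was above PLP2 in all 6 libraries, while GPM6A passed RTN3 on both scales. No neighbours in either order overlapped between libraries. The closest neighbours were PLP2 and RTN4 in GFP cells, at a ratio of 1.10.

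**Figure D3:**
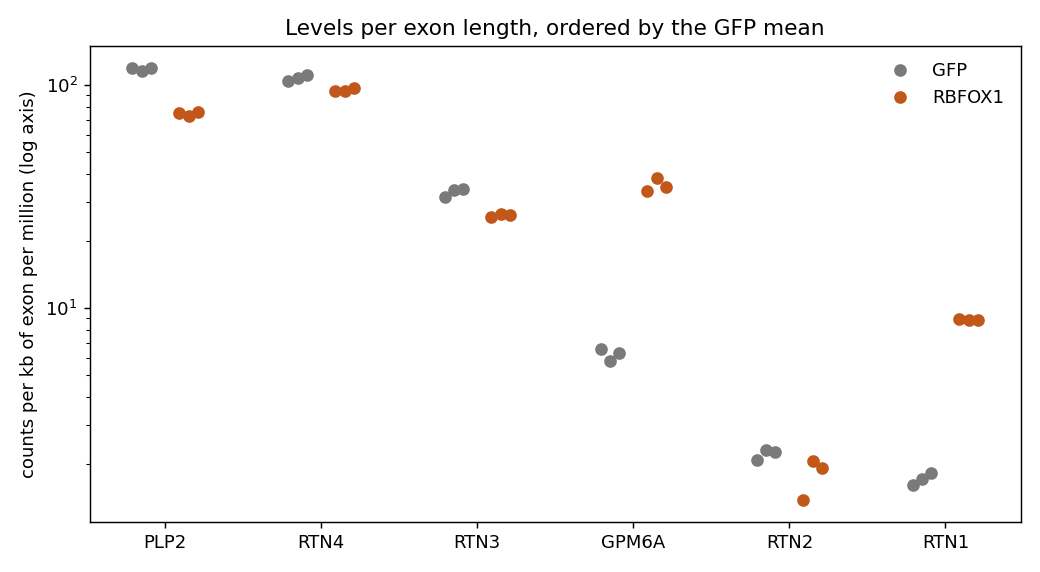
CPM per kb of exon (y axis, log scale) of the 6 tested genes, ordered by their mean in GFP cells; points are the 3 libraries of each group. GPM6A moves from below RTN3 to above it, and on this scale, but not without division by length, RTN1 moves from below RTN2 to above it. GPM6B is left out because most libraries have no count.

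The make-up of the reticulon family shifted with RTN1. RTN1 held 1.15, 1.18 and 1.22% of the RTN1 to RTN4 counts per exon length in the GFP libraries and 6.87, 6.75 and 6.60% in RBFOX1 replicates 1, 2 and 3. RTN3 went from 22.9 ± 0.304% to 19.8 ± 0.298% and RTN4 from 74.4 ± 0.366% to 72.1 ± 0.490%, so that RTN4 remained the main reticulon RNA. The summed level of the 4 reticulons was 145 ± 5.47 RPKM in GFP and 132 ± 2.14 RPKM in RBFOX1 cells, and 143 ± 5.36 and 123 ± 2.17 RPKM without RTN1. The ratio of RTN1 to RTN3 RPKM was 0.0507 to 0.0533 in the GFP libraries and 0.336 to 0.350 in the RBFOX1 libraries. These shares come from the contrast that chose RTN1 and were not tested.

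**Figure D4:**
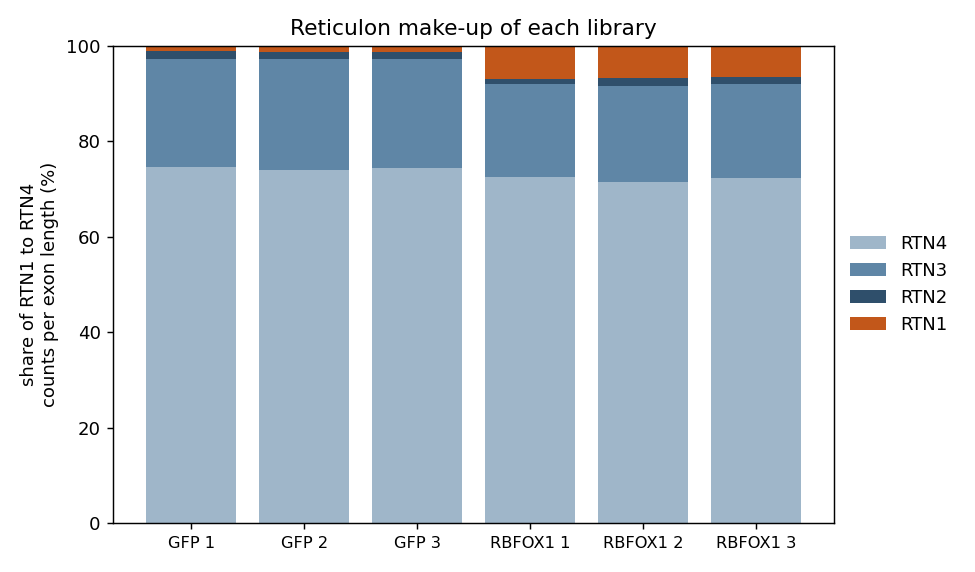
Stacked bars give the share of each reticulon in the RTN1 to RTN4 counts per exon length (y axis, percent) for each of the 6 libraries. RTN1 holds between 1.15 and 1.22% in GFP libraries and between 6.60 and 6.87% in RBFOX1 libraries, and RTN4 is the largest share throughout.

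GPM6A and RTN1 are both long genes, spanning 370 and 275 kb, while PLP2 spans 3.34 kb. Of the 719 tested protein-coding genes whose genomic span was at least that of RTN1, 29.9% were higher and 32.1% lower, against 30.3 and 28.8% of all 14094. The genes whose profile over the 6 libraries was closest to that of GPM6A, by the root mean square difference of centred log2 CPM, were CLIC3 (0.0562), ID2 (0.0630), HES2 (0.0644), SDC2 (0.0701) and EDN1 (0.0868). Closest to RTN1 were MDGA1 (0.0312), SPARC (0.0644), SDC2 (0.0668), MYBL2 (0.0673) and ADM (0.0688). SDC2, a syndecan of the cell surface, was in both lists, and the difference between GPM6A and RTN1 themselves was 0.132, with 17 other genes closer to GPM6A. All genes share the same 6 libraries, and the likeness is a description.

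Of 11 neuronal marker genes, 5 could be tested and 4 of these, NEFL, MAP2, SYP and STMN2, were higher with RBFOX1. The summed level of the 11 was 287 to 311 CPM in GFP and 1267 to 1418 CPM in RBFOX1 libraries. Most of it was NEFL, a neurofilament subunit, which went from 3949 ± 167 to 18162 ± 979 normalized counts. The neuronal markers RBFOX3, SNAP25, NEFM, DCX, ELAVL3 and ELAVL4 had 3 counts or fewer in every library, and TUBB3 did not pass the threshold. Of 7 astrocyte markers, GJA1 and SLC1A2 were higher, but SLC1A2 had at most 5 counts in any library and its groups overlapped. The sum of the 7, mostly GJA1, was 77.0 to 86.4 CPM in GFP and 173 to 191 CPM in RBFOX1 libraries. Of 8 oligodendrocyte lineage markers 1 was higher and 1 lower (212 to 238 and 234 to 249 CPM), with MOG, MAG, SOX10 and OLIG1 at 3 counts or fewer in every library, and of 5 microglial and immune markers likewise 1 and 1 (4.46 to 5.77 and 6.32 to 6.58 CPM). The part of any of these shifts in the values of GPM6A and RTN1 was not tested.

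The other proteins that shape the endoplasmic reticulum did not move one way. Of a list of 22 such genes, all tested, 5 were higher, 8 lower and 9 did not pass the threshold. That is 59.1% past it, beside 63.8% of all genes averaging at least 50 normalized counts, as all 22 did. The median log2 fold change of the 22 was -0.057, against -0.020 for all genes averaging at least 50 normalized counts and 0.0051 for all genes tested. REEP1, which like RTN2 is linked to spastic paraplegia, rose from 72.6 ± 3.20 to 136 ± 7.04 normalized counts, a log2 fold change of 0.89 (SE 0.122). ARL6IP1, a small protein with reticulon-like hairpins, rose by 0.52 and ATL2, an atlastin that fuses tubules, by 0.42 on the log2 scale. LNPK, which stabilizes the junctions between tubules, fell from 1725 ± 64.5 to 1076 ± 3.74 normalized counts, a log2 fold change of -0.68 (SE 0.0530). RETREG2, a reticulon-type protein related to the reticulum turnover receptor RETREG1, had a log2 fold change of -0.51, and CKAP4, a protein of the reticulum's sheets, one of -0.42. REEP5 and ATL3, which are abundant tubule proteins, had log2 fold changes of -0.048 and -0.066 and did not pass the test.

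Of 16 genes of the Nogo receptor complex and of the BACE and APP pair on which reticulons act, 13 were tested. Of these, 1 was higher, 4 were lower and 8 did not pass the threshold. That is 38.5% past it, beside 46.7% of all genes tested. Of the 8 with a mean of at least 50 normalized counts, 3 were lower, where 33.4% of all such genes were. The 3 lower genes with a mean of at least 50 normalized counts were RTN4RL2, a Nogo receptor homologue, at a log2 fold change of -0.86 (SE 0.176), APP, the amyloid precursor, at -0.39 (SE 0.0641), and BACE2, a beta-secretase paralog, at -0.35 (SE 0.0527). The fourth lower gene, RTN4RL1, another Nogo receptor homologue, was less abundant and had a log2 fold change of -0.66 (SE 0.223). BACE1, the beta-secretase that RTN3 and RTN4 restrain, had 381 ± 31.3 normalized counts with GFP and 406 ± 11.4 with RBFOX1 and did not pass the threshold (edgeR adjusted p = 0.328). The Nogo receptor gene RTN4R had a log2 fold change of 0.27 (adjusted p = 0.166), or 0.49 without GFP replicate 1 (adjusted p = 0.0154). The higher gene, NGFR, a coreceptor, was named after its values were seen and had 26.0 ± 5.81 normalized counts with GFP and a log2 fold change of 0.96 (SE 0.201). Another coreceptor, LINGO1, had 5 to 21 counts per library.

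PLP2 was measured beside 25 genes of the MARVEL superfamily and its tetraspan relatives, of which 21 were tested. Of these, 3 were higher, 9 were lower and 9 did not pass the threshold. All 9 lower genes had a mean of at least 50 normalized counts, and none of the 14 genes with such a mean was higher, where 33.4% of all genes with such a mean were lower and 30.4% higher. The median log2 fold change of these 14 was -0.41 against -0.020 for all genes with such a mean, while over the 21 tested, low genes among them, it was 0.012 against 0.0051. CMTM6, which keeps the checkpoint ligand PD-L1 at the cell surface, fell from 2875 ± 143 to 1097 ± 49.0 normalized counts, a log2 fold change of -1.39 (SE 0.0557). CMTM3 had a log2 fold change of -0.92 (SE 0.0515) and MARVELD1 one of -0.72 (SE 0.0552). PLP2 itself, at -0.67, was close to MARVELD1. The higher genes all averaged under 50 normalized counts. Among them, MARVELD3 had 2, 1 and 0 counts in the GFP libraries and 4, 9 and 8 in the RBFOX1 libraries, too few to size its fold. SYP, a synaptic vesicle gene, rose from 11.5 ± 1.17 to 33.9 ± 8.40 normalized counts.

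Genes of filopodia and neurite growth, the structures that GPM6A promotes, moved both ways. Of 23 such genes, all tested, 10 were higher, 10 were lower and 3 did not pass the threshold, beside 63.8% of all genes with a mean of at least 50 normalized counts that passed in either direction. CORO1A, an actin-binding coronin, rose by 1.81 (SE 0.136), DIAPH3, a formin, by 1.80 (SE 0.0873) and GAP43, a protein of growth cones, by 1.71 (SE 0.156) on the log2 scale. MYO10, the motor of filopodial tips, fell from 1342 ± 103 to 371 ± 8.98 normalized counts, a log2 fold change of -1.85 (SE 0.0704). TWF2, a twinfilin, had a log2 fold change of -1.20 (SE 0.0585) and CORO1B one of -0.68 (SE 0.0590).

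**Figure D5:**
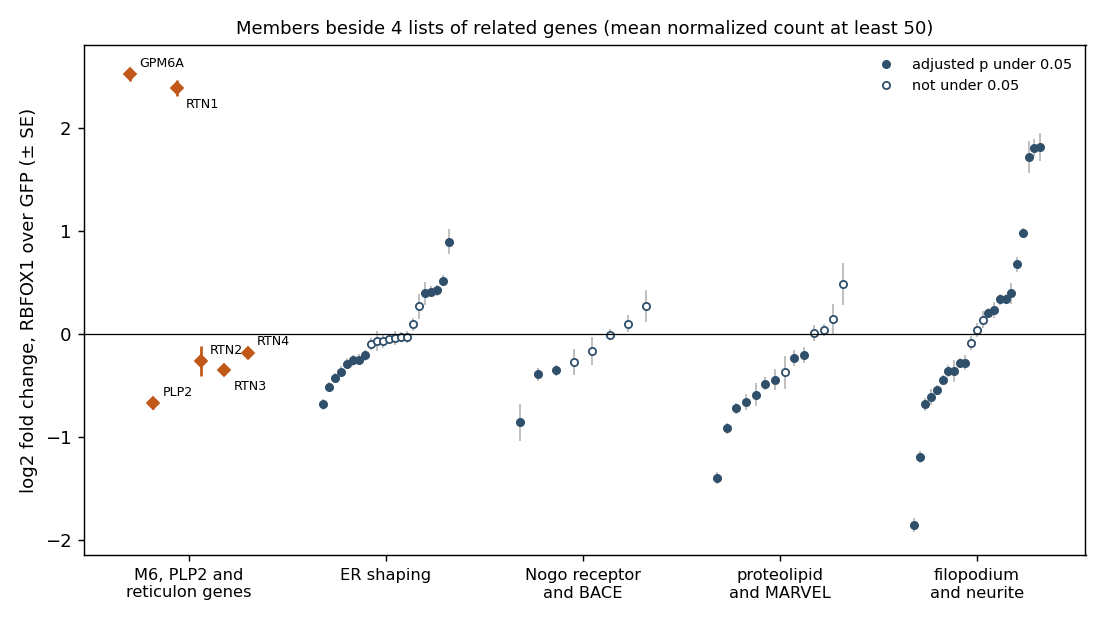
Fitted log2 fold change of RBFOX1 over GFP cells (y axis, with standard error bars) for the 6 tested genes of the M6, PLP2 and reticulon group and for the genes of 4 lists averaging at least 50 normalized counts. GPM6A and RTN1, which were chosen by this difference, lie at 2.51 and 2.38, above every gene drawn from the 4 lists. Filled circles have an adjusted p under 0.05, and the diamonds of the 6 genes carry no such mark.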

How the data were processed

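The 6 libraries (3 GFP, 3 RBFOX1) were stranded, with rRNA removed, and were read as 100 bp pairs. Per the study's methods, HISAT2 alignment to GRCh38 (Ensembl release 87) was followed by HTSeq-count in its intersection-strict mode, and the authors deposited raw counts per gene. Their own DESeq2 comparison (fold changes and p-values) was not used. Lines for reads on no gene (6.61 to 8.74% of pairs), ambiguous (6.89 to 9.35%), of low mapping quality (16.8 to 27.0%) and not aligned (4.64 to 7.46%) stayed out of library sizes and tests.

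Counts were scaled by TMM and compared by the two-sided quasi-likelihood test of edgeR 4.0.16 in R 4.3.3. Condition was the only term, and p-values were adjusted by Benjamini-Hochberg over the 20536 genes with at least 10 counts summed. The threshold was an adjusted p of 0.05. Normalized counts are counts at the mean effective library size. A count of 0 was taken to allow 3 counts, for counting error only. The fitting procedure was tested on simulated data with far fewer changed genes than passed here, as many up as down, and the same spread for all. Symbols, coordinates, exon lengths and 3′ UTRs came from GENCODE release 44 (98.1% of identifiers matched), a later annotation of the same build.

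Members and lists were chosen with earlier results of these data known. Named by rule were the 7 genes, RBFOX1 to RBFOX3, the 5 genes most like GPM6A and RTN1 each, and from each list up to 3 risers and 3 fallers, ranked by log2 fold change among genes that passed, did not overlap and averaged 50 normalized counts or more. Other genes were named after their values were seen, and 1 gene of the rule is not reported here. Nothing says that same-numbered libraries shared a culture, and p-values measure the spread between these libraries. Alternatives were RLE and total-count scaling, other filters on low counts, DESeq2 (1.42.0), limma-voom (limma 3.58.1), a replicate block, thinned counts and omission of each library.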

Additional observations from a re-analysis of the deposited data

How the results depend on the processing

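Under the 14 alternatives, GPM6A stayed between 2.46 and 2.57 and RTN1 between 2.32 and 2.43 on the log2 scale. PLP2 (-0.69 to -0.61), RTN3 (-0.38 to -0.30) and RTN4 (-0.20 to -0.13) kept their direction and passed the threshold in each, with adjusted p-values of at most 1.29e-07, 0.000185 and 0.0303. RTN2 (-0.35 to -0.14) passed it in none (adjusted p = 0.0917 to 0.449). The Nogo receptor and BACE list had 2 higher genes instead of 1 on thinned counts and 1 to 2 with a library left out, RTN4R joining on thinned counts and without GFP replicate 1. Higher and lower genes numbered 2 to 4 and 7 to 9 in the proteolipid and MARVEL list over the alternatives. They numbered 4 to 6 and 8 to 9 in the endoplasmic reticulum list, and 9 to 11 and 9 to 10 in the filopodium list. Without division by exon length, RTN1 held 1.12% of reticulon counts in GFP and 6.35% in RBFOX1 cells. Total-count scaling moved the median of all genes by 0.0502. Same-numbered libraries showed no shared deviation from their group means (correlations of deviations -0.0326, 0.0156 and -0.00055, and 1 of 6 libraries correlated best with its own number). These correlations cannot show whether such libraries were handled together. The replicate block gave 9046 genes past the threshold against 9581, with GPM6A at 2.51 and RTN1 at 2.37, and changed no call among the members. DESeq2 gave 7646. The alternatives planned for GPM6B were not run, since its 5 counts in all give no fold. Depth limits GPM6B, which rests on few counts.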

Other observations

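The 2 nearest tested protein-coding genes on each side of the 7 genes, taken without overlap with the gene itself, were 28 in all. They were chosen after the members' values were seen. Of these, 5 were higher, 16 lower and 7 did not pass the threshold (edgeR, as above), where 23.7% of all genes tested were higher and 22.9% lower. Closer backgrounds have larger shares. Of all tested protein-coding genes, 30.3% were higher and 28.8% lower. Among genes with a mean of at least 50 normalized counts, 30.4% were higher and 33.4% lower. All 4 neighbours of RTN1 were lower, with log2 fold changes of -0.47 for L3HYPDH, -0.63 for JKAMP, -0.43 for PCNX4 and -0.69 for DHRS7, beside 2.38 for RTN1 itself. Around GPM6A, CEP44 was higher by 0.38 on the log2 scale, and HPGD (1 to 5 counts per library), WDR17 and SPATA4 did not pass the threshold. WDR17, 63176 nucleotides from GPM6A, stood at 113 ± 8.23 normalized counts with GFP and 95.0 ± 12.7 with RBFOX1 (SD, n = 3). Around PLP2, RTN3 and RTN4, which were lower themselves, 3 of 4 neighbours each were lower. The exceptions were SYP beside PLP2, which rose by 1.59 on the log2 scale (SE 0.270), ATL3 beside RTN3, which did not pass the threshold, and EML6, 161 nucleotides from RTN4, which rose by 1.30 (SE 0.152). Tested protein-coding genes that overlap a member are not among these neighbours. PRICKLE3 at PLP2 and PPM1N at RTN2 did not pass the threshold, and OFD1 at GPM6B was lower, at a log2 fold change of -0.21.

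GPM6A-DT, a noncoding RNA on the opposite strand within GPM6A, had 9, 2 and 5 counts in the GFP and 12, 4 and 8 in the RBFOX1 libraries and did not pass the threshold (log2 fold change 1.04, SE 0.552, edgeR adjusted p = 0.137). Of the RBFOX paralogs, RBFOX2 stood at 2549 ± 61.8 normalized counts with GFP and 2151 ± 69.0 with RBFOX1 (SD, n = 3), with a log2 fold change of -0.24 (SE 0.0490), and RBFOX3 had at most 3 counts in any library.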
